A study of Mus musculus with 12 samples.

Results

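The 10 genes described here encode chaperones and folding enzymes of the endoplasmic reticulum (ER): Hspa5, Dnajb9, Sdf2l1, Hsp90b1, Pdia3, Pdia4, Pdia6, Creld2, Calr and Canx. They were taken by symbol from a list, out of 55487 genes in a table of read counts, and all 10 were among the 14591 genes abundant enough to be tested. RNA was sequenced from wild-type B16F10 cells, a mouse melanoma line, after 24 h in medium that bone-marrow-derived macrophages had conditioned. The macrophages had been treated for 24 h with control medium (M0), with 20 ng/ml of a cytokine written INF-γ and read here as interferon gamma (M1), with 20 ng/ml of IL-4 (M2), or with 75% B16F10 conditioned medium (TAM). Each of the 4 groups held 3 libraries. The labels do not say whether the macrophage treatment was washed out before medium was collected, nor whether a group's libraries are separate cultures; p-values therefore speak only of the differences between these libraries, which may be technical.

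Proteins that enter the secretory pathway are folded in the ER. Hspa5, also called BiP, is the ER member of the HSP70 family: it binds unfolded chains and holds the stress sensors Ern1 (IRE1), Eif2ak3 (PERK) and Atf6 inactive until unfolded protein accumulates. Those sensors then drive the unfolded protein response, whose classical targets are chaperones like those described here, many of them through an ER stress response element (ERSE) in the promoter that binds ATF6 together with NF-Y. Secretory cells and tumour cells with a high load of membrane and secreted protein, melanosomal glycoproteins among them, depend on this machinery.

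The ERSE sites are shown because the genes that carry them did not all change the same way. In RefSeq windows of 250 bases before the gene start (GRCm38.p6), the ERSE, searched on both strands as CCAAT and CCACG with 9 bases between them, was present in 37 of 32851 promoters, or 0.113%, and in 6 of the 10 chaperone promoters. The exact copies are printed 5′ to 3′ on the strand that reads CCAAT first, with the fixed letters in capitals.
Hspa5: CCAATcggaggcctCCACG
Hsp90b1, nearer the start: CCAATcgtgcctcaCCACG
Hsp90b1, farther from the start: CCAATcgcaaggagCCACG
Pdia6: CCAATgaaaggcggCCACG
Calr: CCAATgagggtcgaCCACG
Canx: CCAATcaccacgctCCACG
Creld2: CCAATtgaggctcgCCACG
The Hspa5 copy lies at chr2:34772025-34772043, 46 bases before the start. The Hsp90b1 copies lie at chr10:86705533-86705551 and chr10:86705638-86705656. The others lie at chr12:17266491-17266509 (Pdia6), chr8:84847075-84847093 (Calr), chr11:50325800-50325818 (Canx) and chr15:88819520-88819538 (Creld2).

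With 1 mismatch allowed in the fixed letters, 432 promoters, or 1.32%, held a copy, and Pdia3 and Pdia4 joined the 6.
Pdia3: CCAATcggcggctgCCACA
Pdia4: CCAATcacgggctgCCACT
These copies lie at chr2:121413873-121413891 and chr6:47813602-47813620. No copy at either setting was found in the windows of Dnajb9 and Sdf2l1, the genes with the largest rise and the largest fall of the 10. The Dnajb9 window lies wholly inside the gene as GENCODE release M21 draws it, so it may miss bases before other starts, whereas the Sdf2l1 window lies outside it. The windows of Hspa5, Hsp90b1, Pdia3, Pdia6 and Calr lie partly inside their GENCODE genes, by 120, 65, 127, 44 and 3 bases. The whole windows of Sdf2l1, Pdia4 and Canx follow, for a gene without a copy, a gene with a near copy, and a gene with an exact copy. Capitals mark the fixed letters of a copy, which reads on the opposite strand in Pdia4.
Sdf2l1: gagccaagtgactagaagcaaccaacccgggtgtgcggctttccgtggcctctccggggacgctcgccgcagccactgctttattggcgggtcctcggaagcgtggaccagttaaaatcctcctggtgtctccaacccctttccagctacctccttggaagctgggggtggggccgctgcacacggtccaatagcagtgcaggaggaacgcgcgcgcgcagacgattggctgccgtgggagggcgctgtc
Pdia4: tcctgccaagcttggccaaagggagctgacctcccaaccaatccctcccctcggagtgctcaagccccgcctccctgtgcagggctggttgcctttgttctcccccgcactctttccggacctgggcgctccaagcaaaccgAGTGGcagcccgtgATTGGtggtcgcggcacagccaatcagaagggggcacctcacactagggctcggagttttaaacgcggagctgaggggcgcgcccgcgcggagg
Canx: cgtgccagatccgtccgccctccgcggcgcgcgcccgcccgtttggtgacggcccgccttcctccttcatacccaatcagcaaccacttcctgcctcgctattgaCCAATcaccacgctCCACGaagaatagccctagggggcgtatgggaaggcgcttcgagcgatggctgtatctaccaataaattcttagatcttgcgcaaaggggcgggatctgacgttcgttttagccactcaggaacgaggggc
They cover chr16:17132384-17132633 for Sdf2l1, chr6:47813513-47813762 for Pdia4 and chr11:50325674-50325923 for Canx, all on the minus strand of the genome. A CCAAT box, which every ERSE copy contains, was present in all 10 windows and in 33.8% of all promoters. The letters TGACGTGG (the core of the unfolded protein response element, 0.563% of promoters) and TGATGNAA (the core of the ATF4 composite element, 3.45%) were in none of the 10. A match is a description of the window and shows no binding.

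One library stood apart before any comparison. M0 replicate 1 correlated with the other M0 libraries at 0.945 and 0.948 over log2 CPM (counts per 1000000 on TMM-scaled library sizes), where all other replicate pairs reached 0.992 or 0.993. Ribosomal protein genes held 8.17% of the counts in this library and 3.65% to 4.26% in the other 11 libraries, and its counts fell on shorter genes (mean exon length weighted by counts 4545 bp, against 5817 to 6091 bp). Log2 changes of the chaperones in TAM and M1 against M0 and most counts of genes called are therefore given with and without it. Other values, such as SEs, SDs and group means, are mostly from all 12 libraries, and this library moved some of them. Melanocyte lineage genes, which mark the labelled cell type, were abundant in all libraries. The summed level of 10 such genes was 27926 to 28035 CPM in M0 and 19993 to 20298 CPM in M1. It was 26124 to 26487 CPM in M2 and 22176 to 23170 CPM in TAM. This sum and the other marker levels in this paragraph are counts per 1000000 on unscaled library totals. Of the 10, 7 were called lower and 0 higher in TAM against M0 (8 and 1 without M0 replicate 1), and 7 and 0 in M1 against M0 (9 and 0 without it). Of all tested genes, 27.2% were called lower and 23.3% higher in TAM against M0 (33.7% and 33.0% without M0 replicate 1). In M1 against M0 these shares were 13.5% and 12.2% (22.9% and 24.3% without it). Of 23 macrophage genes 4 could be tested, and the 23 summed to 5.27 to 8.08 CPM in M0 and 3.79 to 4.83 CPM in TAM. The 4 tested were Cd68, Lyz2, Fcer1g and Coro1a, which, like Laptm5, had counts in all 12 libraries. In TAM against M0, 3 of the 4 were called lower and 0 higher (2 and 0 without M0 replicate 1). Ptprc, Adgre1 and Itgam had no count in any of the 12 libraries. Of 10 fibroblast and endothelial genes 3 could be tested. The list summed to 18.1 to 25.0 CPM in M0 and 30.5 to 33.1 CPM in TAM. The 3 tested were Pdgfra, Pdgfrb and Vwf, which had counts in all 12 libraries. Of these, 2 were called higher and 0 lower in TAM against M0 (2 and 1 without M0 replicate 1). Between M0 and TAM, mean levels went from 18.321 to 25.986 CPM for Pdgfrb and from 1.395 to 5.197 CPM for Vwf. Pdgfra went from 1.515 to 0.732 CPM. Dcn, Cdh5 and Kdr had no count. The part of these levels in the results was not tested.

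The medium of TAM macrophages split the chaperones. Against M0 medium, Hspa5 rose 2.33-fold and its J-domain partner Dnajb9 rose 4.56-fold, while Sdf2l1, Pdia3, Pdia4, Pdia6, Calr and Creld2 fell, and neither Hsp90b1 nor Canx was called. So 2 of 10 rose and 6 of 10 fell at an adjusted p under 0.05 in edgeR's quasi-likelihood test, where 50.5% of all tested genes were called, 23.3% higher and 27.2% lower. Among the 9445 tested genes with a mean of at least 10 CPM, as all 10 chaperones have, 55.9% were called. The median change of the 10 was -0.57 on the log2 scale, against -0.02 over all genes tested, and -0.35 without M0 replicate 1. Without that library, 2 rose and 7 fell, where 66.7% of 14968 tested genes were called, 33.0% higher and 33.7% lower. In a bulk culture, fewer cells expressing a gene and less of its RNA per cell cannot be told apart.

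**Figure D1:**
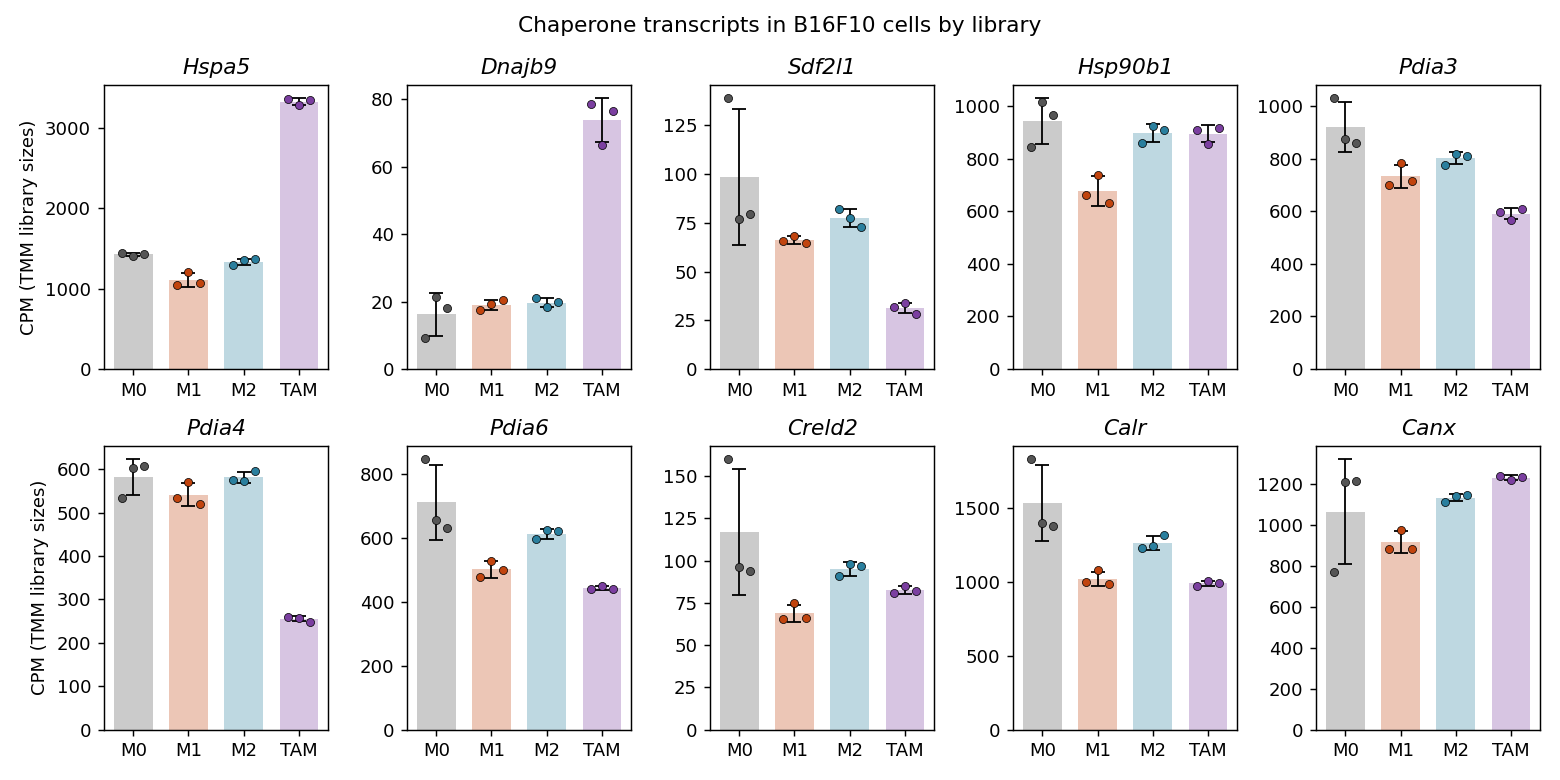
Level of each chaperone in CPM on TMM-scaled library sizes (y axis from 0, its own scale per gene) in the 4 groups (x axis). Points are libraries, bars group means and error bars SD of 3 libraries; Hspa5 and Dnajb9 are highest in TAM, and Sdf2l1, Pdia3, Pdia4 and Pdia6 lowest there.

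Hspa5 (chr2:34771970-34777547) binds and releases unfolded chains in a cycle driven by ATP. It stood at 1449, 1412 and 1428 CPM in M0, at 1047, 1207 and 1066 CPM in M1, at 1289, 1352 and 1364 CPM in M2, and at 3356, 3285 and 3349 CPM in TAM. All 3 TAM libraries lay far above the other 9, and the 4 groups, in the order TAM, M0, M2 and M1, did not overlap. Its log2 change in TAM against M0 was 1.22 ± 0.08 (SE; adjusted p = 7.77e-07), and 1.22 without M0 replicate 1.

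Dnajb9 (chr12:44205559-44210326), also called ERdj4, is a J-domain protein that delivers substrates to Hspa5 and stimulates its ATPase. Its level was 9.20, 21.4 and 18.0 CPM in M0, 17.4, 19.4 and 20.3 CPM in M1, 20.9, 18.2 and 19.9 CPM in M2, and 78.6, 66.6 and 76.5 CPM in TAM. The TAM libraries stood well above all others, and the other 3 groups overlapped, with M0 replicate 1 lowest at 165 counts. The log2 change in TAM against M0 was 2.19 ± 0.24 (SE; adjusted p = 2.67e-05), and 1.91 without that library.

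Sdf2l1 (chr16:17130138-17132383) is a luminal protein found in complexes with Hspa5 and J-domain proteins, and it moved the other way. Its level was 139, 77.0 and 79.4 CPM in M0, 65.4, 68.4 and 64.9 CPM in M1, 82.0, 77.2 and 73.0 CPM in M2, and 31.7, 33.9 and 28.3 CPM in TAM. Every TAM library lay below the other 9, and M0 replicate 1 was far above the rest of its group. Its log2 change in TAM against M0 was -1.65 ± 0.20 (SE; adjusted p = 5.36e-05), and -1.33 without M0 replicate 1. The ratio of Dnajb9 to Sdf2l1 counts was 0.0662 to 0.278 in M0, 0.265 to 0.314 in M1, 0.236 to 0.273 in M2, and 1.96 to 2.70 in TAM.

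Hsp90b1 (chr10:86690209-86705509), the ER HSP90 protein GRP94, matures a narrow set of clients that includes integrins and Toll-like receptors. It measured 846, 1014 and 968 CPM in M0, 664, 739 and 630 CPM in M1, 859, 924 and 910 CPM in M2, and 911, 858 and 919 CPM in TAM. The M1 libraries lay below the other 9, and M0, M2 and TAM overlapped. Its change in TAM against M0 was -0.07 on the log2 scale, with a 95% interval of -0.29 to 0.14 (adjusted p = 0.554). Without M0 replicate 1 it was -0.15 and was called (adjusted p = 0.00953). Its exons overlap the opposite-strand gene 1810014B01Rik over 415 bases, to which 1518 counts were assigned in all 12 libraries together. Without a stated strand setting, reads of that stretch cannot be told apart. The same-strand gene Gm15344, with 555 counts, shares 84 exon bases with Hsp90b1, where a strand setting would not separate reads.

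Pdia3, Pdia4 and Pdia6, of the protein disulfide isomerase family, all fell in TAM. Pdia4 (chr6:47796141-47813430), or ERp72, is an oxidoreductase that works beside Hspa5. It stood at 533, 603 and 607 CPM in M0, at 534, 570 and 520 CPM in M1, at 574, 573 and 597 CPM in M2, and at 259, 258 and 249 CPM in TAM. The 3 TAM libraries were below all others, and the remaining groups lay close together. Its log2 change in TAM against M0 was -1.19 ± 0.09 (SE; adjusted p = 1.22e-06), and -1.25 without M0 replicate 1.

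Pdia3 (chr2:121413775-121438687), or ERp57, forms disulfides in glycoproteins that Calr and Canx hold. Its values were 1029, 873 and 858 CPM in M0, 701, 784 and 714 CPM in M1, 776, 818 and 811 CPM in M2, and 595, 567 and 610 CPM in TAM. The TAM libraries were lowest, M0 was highest, and M1 and M2 overlapped between them. Its log2 change in TAM against M0 was -0.64 ± 0.10 (SE; adjusted p = 0.000236), and -0.56 without M0 replicate 1.

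Pdia6 (chr12:17266545-17284770), or P5, reduces and isomerises disulfides and binds the sensor Ern1. Its level was 845, 654 and 631 CPM in M0, 476, 527 and 498 CPM in M1, 594, 622 and 620 CPM in M2, and 439, 449 and 441 CPM in TAM. The 4 groups did not overlap and ran from M0 through M2 and M1 down to TAM. In TAM against M0 the log2 change was -0.68 ± 0.11 (SE; adjusted p = 0.000465), and -0.54 without M0 replicate 1.

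Creld2 (chr15:88819646-88826683) is a secreted and luminal protein with disulfide isomerase activity, induced by ER stress. Levels were 160, 96.4 and 93.9 CPM in M0, 65.2, 74.7 and 66.3 CPM in M1, 90.6, 98.0 and 96.5 CPM in M2, and 80.8, 85.1 and 81.9 CPM in TAM. M0 replicate 1 was far above the other 2 M0 libraries, and the TAM libraries lay below M0 and M2 but above M1. The log2 change in TAM against M0 was -0.50 ± 0.18 (SE; adjusted p = 0.0354) and -0.21 without M0 replicate 1 (adjusted p = 0.00071). The call was lost when any of the 3 TAM libraries was left out (adjusted p = 0.0689 to 0.0903).

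Of the lectin chaperones, Calr fell in TAM and Canx was not called. Calr (chr8:84841850-84846934), calreticulin, is a soluble lectin that holds monoglucosylated glycoproteins and buffers calcium. Its level was 1832, 1399 and 1378 CPM in M0, 997, 1079 and 988 CPM in M1, 1230, 1244 and 1316 CPM in M2, and 972, 1007 and 993 CPM in TAM. TAM and M1 overlapped at the bottom, M2 lay between, and M0 was highest. Its log2 change in TAM against M0 was -0.63 ± 0.11 (SE; adjusted p = 0.000789), and -0.49 without M0 replicate 1.

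Canx (chr11:50293961-50325673), calnexin, is the membrane-bound partner of Calr and is known in melanocytes for folding tyrosinase. It measured 769, 1208 and 1215 CPM in M0, 881, 975 and 883 CPM in M1, 1113, 1141 and 1144 CPM in M2, and 1239, 1217 and 1235 CPM in TAM. M0 replicate 1 was the lowest of all 12 libraries, while the other M0 libraries lay just under those of TAM. The log2 change in TAM against M0 was 0.21, with a 95% interval of -0.12 to 0.54 (adjusted p = 0.265), and 0.02 without M0 replicate 1 (-0.06 to 0.10, adjusted p = 0.716).

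**Figure D2:**
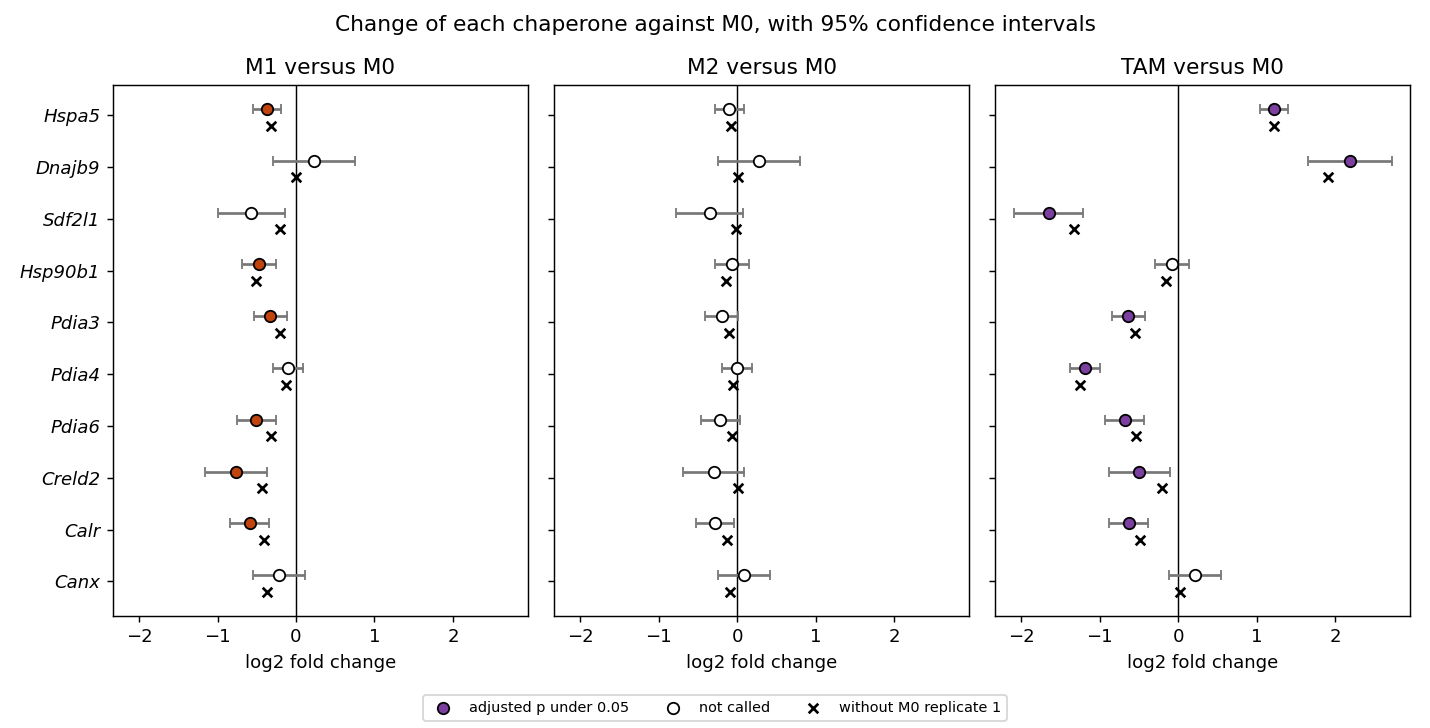
Log2 fold change against M0 (x axis, shared scale) of each chaperone (y axis) in M1, M2 and TAM. Circles are the fit of 12 libraries with 95% confidence intervals, filled where the adjusted p is under 0.05, and crosses the fit without M0 replicate 1; TAM values run from -1.65 for Sdf2l1 to 2.19 for Dnajb9, and no M2 value is filled.

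The make-up of the chaperone pool in TAM differed from that in the other groups. Hspa5 gave 19.0% to 20.0% of the summed CPM of the 10 genes in each of the 9 libraries of M0, M1 and M2, and 42.0% to 42.2% in the 3 TAM libraries. The summed level was 7277 to 7610 CPM in M0, 5449 to 6042 CPM in M1, 6629 to 6951 CPM in M2 and 7825 to 7981 CPM in TAM. Without Hspa5, the other 9 genes summed to 5848 to 6161 CPM in M0, 4386 to 4836 CPM in M1, 5340 to 5587 CPM in M2 and 4540 to 4633 CPM in TAM. TAM was thus highest for the whole sum, and for the other 9 genes lay within the range of M1. The ratio of Hsp90b1 to Hspa5 counts was 0.584 to 0.718 in M0, 0.591 to 0.634 in M1, 0.666 to 0.683 in M2 and 0.261 to 0.274 in TAM.

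**Figure D3:**
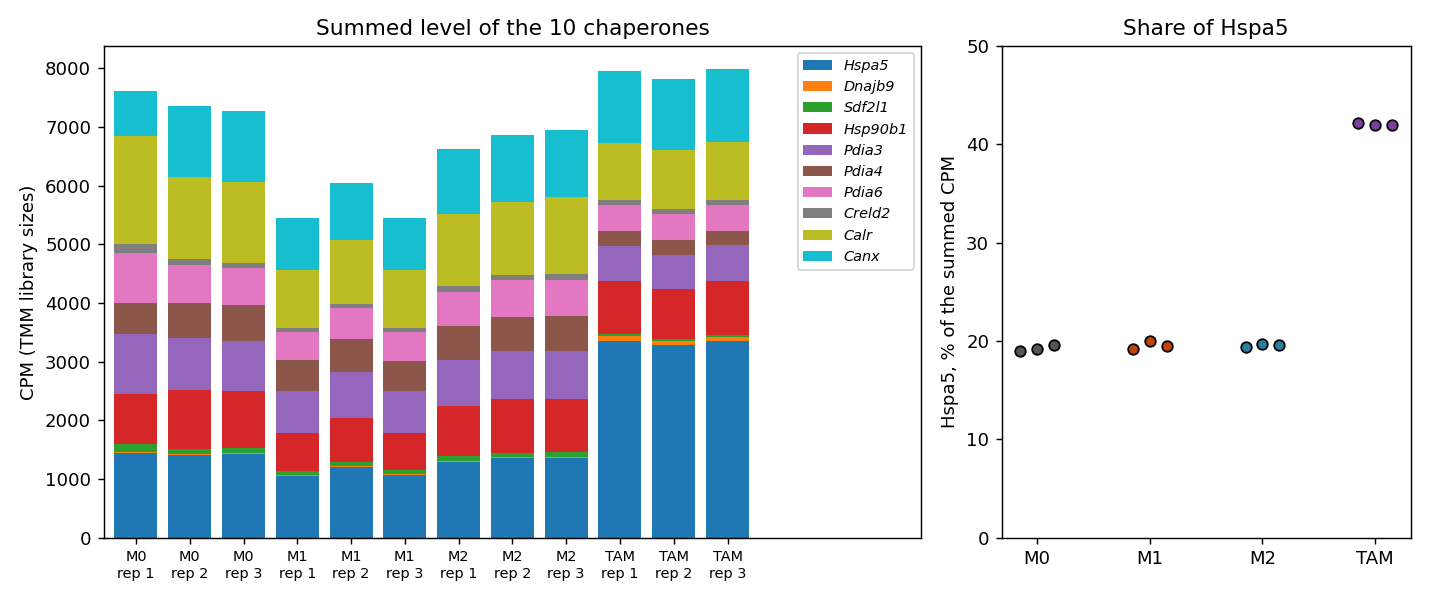
Left, summed CPM of the 10 chaperones (y axis) in each library (x axis), stacked by gene. Right, percentage of that sum given by Hspa5 in each library, at 19.0% to 20.0% in M0, M1 and M2 and 42.0% to 42.2% in TAM.

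Levels per length of exon gave the order of the genes within each group. The length merges all annotated exons of a gene and may exceed that of the transcript expressed. Calr was first in M0 at 533 ± 88.9 CPM per kb (SD, n = 3), or 482 without M0 replicate 1, and Hspa5 second at 338 ± 4.36 CPM per kb. These genes also took places 1 and 2 in M1 and M2, so Calr led Hspa5 in M0, M1 and M2. The range of Calr lay above that of Hspa5 in each of these groups, and in M1 the range of Hspa5 overlapped with that of Pdia3. In TAM Hspa5 was first at 787 ± 9.26 CPM per kb and Calr second at 344 ± 6.04 CPM per kb. Canx and Hsp90b1 followed in TAM at 262 ± 2.52 and 222 ± 8.25 CPM per kb, ahead of Pdia3 at 188 ± 6.88 CPM per kb. In M0, Pdia4, Hsp90b1, Canx and Pdia6 overlapped with their neighbours in places 4 to 7, and Pdia3 stood above them in place 3. Without M0 replicate 1, Pdia4 and Hsp90b1 still overlapped, while Canx and Pdia6 stood apart from their neighbours. Pdia4 was in place 7 in TAM at 106 ± 2.34 CPM per kb, after place 4 in M0 at 242 ± 17.3 CPM per kb, or place 5, below Canx, without M0 replicate 1. Dnajb9 was last in M0, M1 and M2, at 6.36 ± 2.47, 7.47 ± 0.60 and 7.73 ± 0.53 CPM per kb. In TAM its 29.0 ± 2.52 CPM per kb overlapped with the 28.2 ± 2.53 CPM per kb of Sdf2l1.

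With medium of M1 macrophages, 6 of the 10 chaperones fell. Hspa5, Hsp90b1, Pdia3, Pdia6, Calr and Creld2 fell against M0, none of the 10 rose, and Dnajb9, Sdf2l1, Pdia4 and Canx were not called. These are 6 of 10, where 25.7% of all tested genes were called and 13.5% were lower. This comparison shares its M0 libraries with that of TAM. The log2 changes were -0.37 ± 0.08 for Hspa5 (SE; adjusted p = 0.00739) and -0.48 ± 0.10 for Hsp90b1 (SE; adjusted p = 0.00498). Without M0 replicate 1 these were -0.32 and -0.51. Calr changed by -0.59 ± 0.11 (SE; adjusted p = 0.00318), and by -0.41 without that library. Creld2 changed by -0.76 ± 0.18 (SE; adjusted p = 0.00946), and Pdia6 by -0.50 ± 0.11 (SE; adjusted p = 0.00744). Without that library they changed by -0.43 and -0.32.

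Pdia3 had the smallest called change in M1, -0.33 ± 0.10 (SE; adjusted p = 0.0282), and it was lost in 9 of 21 alternatives, among them without M1 replicate 1 (adjusted p = 0.116) and without M1 replicate 3 (adjusted p = 0.106). Dnajb9 measured 0.23 (95% interval -0.29 to 0.75, adjusted p = 0.49), and Sdf2l1 -0.57 ± 0.19 (SE; adjusted p = 0.0517). Without M0 replicate 1, 9 of 10 were lower, all but Dnajb9, where 47.1% of tested genes were called, 24.3% higher and 22.9% lower. The changes of Pdia3, Pdia4, Canx and Sdf2l1 were then -0.20, -0.12, -0.37 and -0.20, and that of Dnajb9 was 0.00. When M1 and M0 were fitted without the other groups, 0 of 10 were called, where 9.30% of 13789 tested genes were called. In that fit 5 of the 10, and 3353 of all genes, had an unadjusted p under 0.05.

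The medium of M2 macrophages called none of the chaperones against M0. The changes lay between -0.35 for Sdf2l1 and 0.28 for Dnajb9 on the log2 scale, and between -0.14 for Hsp90b1 and 0.01 for Dnajb9 without M0 replicate 1. The share called among all tested genes was 0.00%, with 980 genes at an unadjusted p under 0.05. Of the 10 chaperones, Calr alone had an unadjusted p under 0.05, at a change of -0.28 with a 95% interval of -0.53 to -0.03. Without M0 replicate 1 its change was -0.13. The number of the 10 at an unadjusted p under 0.05 was 2 in DESeq2, 4 without M0 replicate 1, and 5 without M0 replicate 2 or M0 replicate 3. Among all tested genes it was 1281 of 14591 in DESeq2 and 1064 of 14968 without M0 replicate 1. It was 3202 of 15005 without M0 replicate 2 and 3241 of 14968 without M0 replicate 3. Of the 10, it was 0 without M2 replicate 1 or M2 replicate 2, with no low-count filter, and when only the 6 libraries compared were fitted. The all-gene counts there were 464 of 14990, 430 of 14961, 1468 of 27593 and 183 of 13583 in that order. DESeq2 and limma-voom also called 0 of 10, and edgeR called 0 without M0 replicate 1, where 0.341% of tested genes were called. In the fit of 12 libraries the interval for Hspa5 was -0.28 to 0.08, and that for Dnajb9 was -0.24 to 0.80, so a rise of the size seen in TAM lies outside both.

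TAM was also set directly against M1 and M2. Against M1, Hspa5, Dnajb9, Hsp90b1 and Canx were higher in TAM and Pdia3, Pdia4 and Sdf2l1 lower, 7 of 10 where 43.0% of all tested genes were called, 19.8% higher and 23.3% lower. The log2 differences were 1.59 ± 0.08 for Hspa5 (SE; adjusted p = 7.5e-08), 1.96 ± 0.24 for Dnajb9 (SE; adjusted p = 6.07e-05) and 0.40 ± 0.10 for Hsp90b1 (SE; adjusted p = 0.00644). The call of Hsp90b1 was lost with no low-count filter (adjusted p = 0.0782). Pdia4 differed by -1.09 ± 0.09 (SE; adjusted p = 2.1e-06) and Sdf2l1 by -1.08 ± 0.20 (SE; adjusted p = 0.00106). Canx, at 0.43 ± 0.15 (SE; adjusted p = 0.0386), lost its call when any library of M1, M2 or TAM was left out (adjusted p = 0.0633 to 0.132). The call of Pdia3, at -0.31 ± 0.10 (SE; adjusted p = 0.021), was lost without M1 replicate 2 (adjusted p = 0.0764). Calr differed by -0.04, with a 95% interval of -0.29 to 0.20, and by -0.09 without M0 replicate 1. Without M0 replicate 1 all 10 were called, 5 in each direction, where 70.1% of tested genes were called, 32.4% higher and 37.7% lower.

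Against M2, Hspa5 and Dnajb9 were higher in TAM and Pdia3, Pdia4, Pdia6, Calr and Sdf2l1 lower, 7 of 10 where 43.2% of all tested genes were called, 20.7% higher and 22.6% lower. Hspa5 differed by 1.32 ± 0.08 (SE; adjusted p = 4.79e-07) and Dnajb9 by 1.91 ± 0.24 (SE; adjusted p = 7.31e-05). Pdia4 differed by -1.19 ± 0.09 (SE; adjusted p = 1.31e-06) and Sdf2l1 by -1.31 ± 0.20 (SE; adjusted p = 0.000299). Hsp90b1 was at nearly the same level in both groups, with a difference of 0.00 and a 95% interval of -0.22 to 0.21. Calr, at -0.35 ± 0.11 (SE; adjusted p = 0.0261), lost its call without M2 replicate 2, M2 replicate 3, TAM replicate 1 or TAM replicate 3 (adjusted p = 0.0545 to 0.0833). Its call was also lost with upper-quartile scaling factors and with no low-count filter. Without M0 replicate 1, 3 were higher and 6 lower, where 69.5% of tested genes were called, 34.2% higher and 35.3% lower.

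Between M1 and M2, Hspa5 and Hsp90b1 were lower in M1, 2 of 10 where 17.2% of all tested genes were called, 9.72% higher and 7.50% lower. The differences were -0.27 ± 0.08 (SE; adjusted p = 0.0432) and -0.41 ± 0.10 (SE; adjusted p = 0.0149). Leaving out single libraries moved this count between 0 and 8, and the count over all tested genes between 1686 and 7233. Of the 10, 8 were called without M0 replicate 1, all lower in M1. In that fit 48.3% of tested genes were called, 24.8% higher and 23.5% lower.

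Other genes of ER folding were called in both directions in TAM against M0. Their counts stand against the 23.3% of all tested genes called higher and 27.2% called lower, or 33.0% and 33.7% without M0 replicate 1. Of the sensors of the unfolded protein response and their factors, 6 of 10 rose and 2 fell, with a median log2 change of 0.95 (7 and 2 without M0 replicate 1, median 1.22). Ppp1r15a, which restores translation by directing dephosphorylation of eIF2α, rose by 4.85 ± 0.16 (SE), from 18.0 ± 3.25 CPM in M0 to 520 ± 11.4 CPM in TAM (SD, n = 3). Ern1, the sensor kinase and nuclease IRE1, rose from 36.4 ± 18.7 to 187 ± 2.50 CPM (SD, n = 3), Atf6, the sensor cleaved in the Golgi, from 72.9 ± 18.6 to 296 ± 4.87 CPM, and Xbp1, the factor whose mRNA Ern1 splices, from 159 ± 25.8 to 340 ± 23.3 CPM. The adjusted p-values were 1.33e-08, 0.000162, 2.71e-06 and 1.79e-05 in that order.

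Genes of ER-associated degradation, which extracts misfolded protein to the proteasome, gave 10 of 20 higher and 4 lower and a median of 0.36 (12 and 5 without M0 replicate 1, median 0.38). Herpud1, a stress-induced organiser of the degradation complex, changed by 1.55 ± 0.10 (SE; adjusted p = 5.53e-07). Erlec1, a luminal lectin, changed by 0.82 ± 0.09 (SE; adjusted p = 2.56e-05). Ubxn4, a membrane adaptor for the p97 ATPase, changed by 0.65 ± 0.09 (SE; adjusted p = 9.21e-05).

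Among other partners of HSP70 and luminal chaperones, 4 of 17 were higher and 5 lower, near the 23.3% and 27.2% of all tested genes. Their median was 0.00 (10 higher and 6 lower without M0 replicate 1, median 0.17). Hyou1, the nucleotide exchange factor of Hspa5, changed by 0.55 ± 0.09 (SE; adjusted p = 0.000542) and Sec63, the translocon's J-domain protein, by 0.49 ± 0.08 (SE; adjusted p = 0.000461). Manf, a luminal protein that binds Hspa5, fell by 1.06 on the log2 scale (adjusted p = 0.00244; -0.66 without M0 replicate 1). Its relative Cdnf rose from 0.43 ± 0.33 to 2.54 ± 0.39 CPM (SD, n = 3), an adjusted p of 0.00247.

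Other disulfide oxidoreductases gave 4 higher and 7 lower of 20, with a median of -0.13 (9 and 8 without M0 replicate 1, median -0.01). Ero1l, the oxidase that recharges the protein disulfide isomerases, rose from 190 ± 78.7 CPM in M0 to 1579 ± 74.3 CPM in TAM (SD, n = 3), a log2 change of 3.05 ± 0.27 (SE; adjusted p = 5.02e-06). The sulfhydryl oxidase Qsox2 changed by 0.72 ± 0.11 (SE; adjusted p = 0.000237). The peroxiredoxin Prdx4 changed by -1.12 ± 0.21 (SE; adjusted p = 0.00108) and the thioredoxin-domain protein Txndc11 by -0.43 ± 0.08 (SE; adjusted p = 0.0011).

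Of the lectin cycle and glycan trimming genes, 5 of 12 were higher and 1 lower, with a median of 0.30 (7 and 1 without M0 replicate 1, median 0.18). The single fall was Mogs, the glucosidase that removes the outermost glucose of the N-glycan, by 1.36 on the log2 scale (adjusted p = 5.65e-06). Mcfd2, a cargo receptor subunit, changed by 0.83 ± 0.08 (SE; adjusted p = 1.19e-05), Calr3 by 1.38 ± 0.20 (SE; adjusted p = 0.000186) from 1.34 ± 0.18 CPM in M0, and the mannosidase Man1a by 0.66 ± 0.20 (SE; adjusted p = 0.0168). The ER prolyl isomerases gave 1 higher and 5 lower of 8, with a median of -0.50 (3 and 4 without M0 replicate 1, median -0.26). Fkbp9 changed by -1.04 ± 0.08 (SE; adjusted p = 1.42e-06), Ppib, which acts on collagen, by -0.61 ± 0.16 (SE; adjusted p = 0.00789; -0.39 without M0 replicate 1) and Fkbp14 by -0.55 ± 0.13 (SE; adjusted p = 0.00415). Fkbp10 changed by 0.65 ± 0.16 (SE; adjusted p = 0.00561).

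The translocon and oligosaccharyltransferase genes gave 3 higher and 5 lower of 25, with a median of -0.11 (10 and 6 without M0 replicate 1, where the median turned to 0.04). The catalytic subunit Stt3a changed by 0.77 ± 0.11 (SE; adjusted p = 0.000136) and the channel subunit Sec61a1 by 0.42 ± 0.10 (SE; adjusted p = 0.00383). The oligosaccharyltransferase subunits Tusc3 and Ost4 changed by -0.77 ± 0.09 (SE; adjusted p = 4.79e-05) and -1.05 ± 0.23 (SE; adjusted p = 0.00355), the latter by -0.68 without M0 replicate 1. Of the genes of ER calcium handling, 4 of 14 were higher and 1 lower, with a median of 0.11 (6 and 4 without M0 replicate 1, median 0.17). Atp2a3, a calcium pump of the ER, went from 0.0763 ± 0.0425 CPM in M0 to 12.9 ± 0.89 CPM in TAM (SD, n = 3; adjusted p = 1.07e-06 in edgeR's fit). Itpr2, a calcium release channel, changed by 0.77 ± 0.20 (SE; adjusted p = 0.00708), Rcn2 by 0.45 ± 0.11 (SE; adjusted p = 0.00608) and the calcium sensor Stim1 by -0.47 ± 0.11 (SE; adjusted p = 0.0036).

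**Figure D4:**
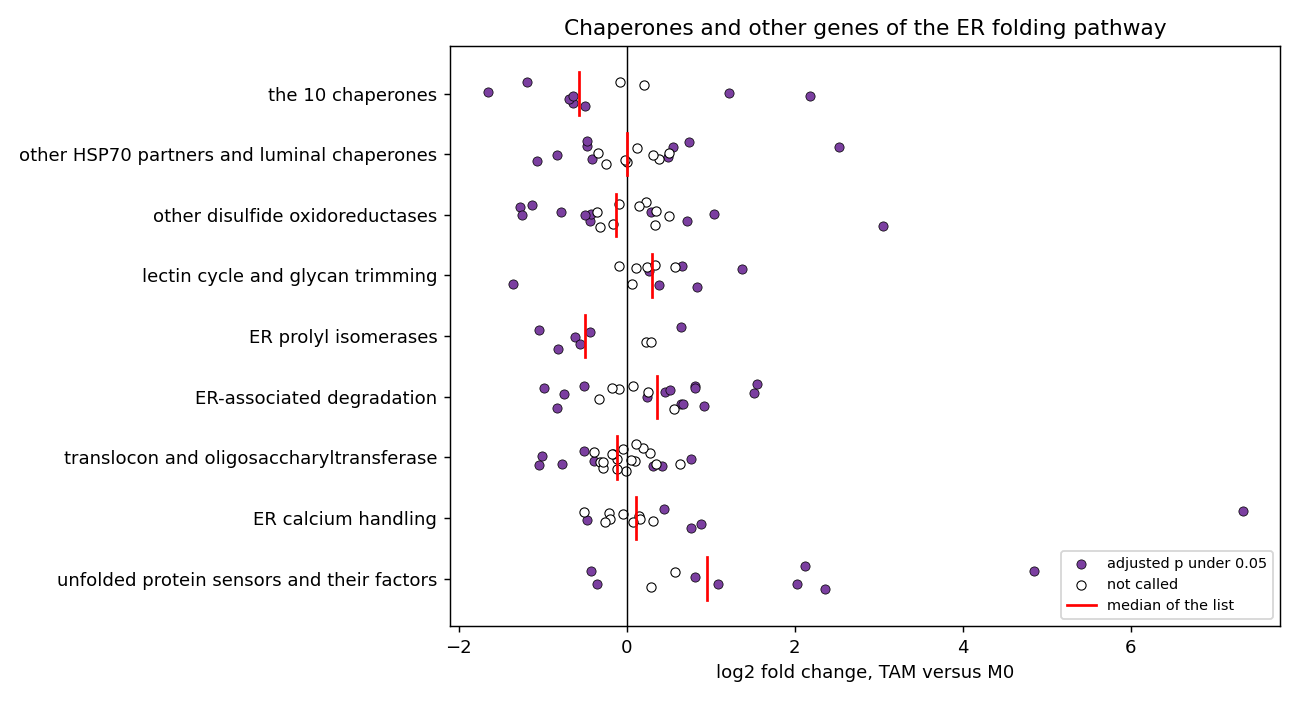
Log2 fold change in TAM against M0 (x axis) of the 10 chaperones and of the tested genes of 8 other lists of ER folding (y axis), 1 point a gene, filled where the adjusted p is under 0.05. Red lines are list medians in the fit of 12 libraries, which run from -0.57 for the 10 chaperones to 0.95 for the sensors and their factors, against -0.02 over all tested genes.

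The same lists were counted in M1 against M0, where 12.2% of all tested genes were called higher and 13.5% lower, or 24.3% and 22.9% without M0 replicate 1. The sensors gave 1 higher and 1 lower of 10 (3 and 3 without M0 replicate 1): Atf6 changed by 0.52 ± 0.16 (SE; adjusted p = 0.0344) and Xbp1 by -0.45 ± 0.11 (SE; adjusted p = 0.0149), the latter by -0.27 without M0 replicate 1. Degradation genes gave 3 higher and 2 lower of 20 (6 and 6 without it), with Herpud1 at -0.86 ± 0.10 (SE; adjusted p = 9.95e-05). The translocon and oligosaccharyltransferase genes gave 0 higher and 9 lower of 25 (2 and 16 without it), among them the signal peptidase subunit Spcs2 at -0.56 ± 0.10 (SE; adjusted p = 0.0016) and the subunit Dad1 at -1.37 ± 0.26 (SE; adjusted p = 0.00288), which was -0.85 without M0 replicate 1.

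HSP70 partners gave 1 higher and 4 lower of 17 in M1 (2 and 5 without M0 replicate 1), with Hyou1 at -0.39 ± 0.09 (SE; adjusted p = 0.0109) and Dnajc25 at -0.55 ± 0.12 (SE; adjusted p = 0.0068). The oxidoreductases gave 0 higher and 6 lower of 20 (6 and 7 without it), with Txndc11 at -0.62 ± 0.08 (SE; adjusted p = 0.000221) and Txndc5 at -0.50 ± 0.10 (SE; adjusted p = 0.00425). The lectin cycle gave 2 higher and 3 lower of 12 (3 and 4 without it), with Calr3 at 0.90 ± 0.20 (SE; adjusted p = 0.00802) and Mogs at -0.49 ± 0.12 (SE; adjusted p = 0.0119), which was -0.30 without it. Calcium handling gave 3 higher and 1 lower of 14 (4 and 3 without it), with the calcium-binding protein Rcn1 at 1.27 ± 0.09 (SE; adjusted p = 9.04e-07) and Itpr2 at 0.84 ± 0.20 (SE; adjusted p = 0.00997). No prolyl isomerase of 8 was called (2 higher and 1 lower without it), and the smallest adjusted p-values were 0.0738 for Fkbp2 and 0.115 for Fkbp9.

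Genes resembling Hspa5 and Dnajb9 in log2 CPM were sought among 9049 tested genes with a mean of at least 10 CPM. Predicted genes, pseudogenes and the 10 chaperones themselves were left out of this set. Over the 12 libraries, those most like Hspa5 were Chtop, Pon2, Zc3h8, Orc5 and Natd1, with Pearson r of 0.989 to 0.995. Those most like Dnajb9 were Slc38a2, Sertad2, Tbcel, Rbm39 and Pde4dip, with r of 0.994 to 0.995. The TAM libraries lie apart from the other 9 for these genes, so r is only a description, and the names depend on M0 replicate 1. Without it, the 5 genes nearest Hspa5 were Serp1, Trp53inp1, Jmy, Slc19a2 and Ccar1, with r of 0.997 to 0.999, and those nearest Dnajb9 were Avl9, Dusp11, Smad7, Wdr75 and Uri1, with r of 0.995 to 0.996.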

How the data were processed

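The authors deposited raw read counts per Ensembl gene for 12 libraries; HISAT2 2.0 and mm10 are named, without a role, per the submitters' processing notes. RNA was extracted with Trizol and made into Illumina mRNA libraries, per the labels' protocols. The counter, annotation and strand setting were not given. Library totals were 15916756 to 20863973 counts. Symbols, positions and merged exon lengths came from GENCODE release M21 (GRCm38, also called mm10), promoters from RefSeq on GRCm38.p6.

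Counts were fitted in R 4.3.3 with edgeR 4.0.16: filterByExpr by group, TMM, 1 robust quasi-likelihood fit of all 12 libraries with a mean per group, and Benjamini-Hochberg adjustment over 14591 genes, with calls at an adjusted p under 0.05. Adjusted p-values are from this edgeR test where no other tool is stated. SE is the absolute log2 change divided by the square root of F, and 95% intervals use the fit's degrees of freedom. CPM are counts per 1000000 on TMM-scaled library sizes, except for the marker genes of cell types, where library totals were not scaled. DESeq2 1.42.0, limma-voom 3.58.1 and other settings were alternatives. The fit was also run on simulated counts in which no library was made to stand apart as M0 replicate 1 does, so that run does not cover such a library. The 10 genes, the other lists and the rules were chosen with earlier results of these data known. Named pathway genes are up to 4 per list with the smallest adjusted p in TAM against M0 and up to 2 in M1 against M0; 1 gene that this rule names is not reported here. Counts of the lists without M0 replicate 1, and the share called at 10 CPM or more, were added after the data had been seen. Replicates differed by more than sampling noise in every pair (chi-square per degree of freedom of 2.31 or more), so no library was counted as a duplicate.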

Additional observations from a re-analysis of the deposited data

How the results depend on the processing

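In 21 alternatives to the fit of TAM against M0, all 10 chaperones kept their direction and 7 of the 8 called genes kept their call in every one: Hspa5, Dnajb9, Sdf2l1, Pdia3, Pdia4, Pdia6 and Calr. Creld2 lost its call when only the 6 libraries compared were fitted (adjusted p = 0.144) and with the replicate block (adjusted p = 0.0577). The 6 calls of M1 against M0 became 0 in the fit of only the 6 libraries compared, where 9.30% of tested genes were called. No called gene of that comparison held in every alternative. The 2 calls of M1 against M2 became 1 with RLE size factors, 4 with library totals unscaled and 0 with no low-count filter. They became 8 in the fit of only the 6 libraries compared and 1 with the replicate block. Leaving out single libraries moved them from 0 to 8. Over all tested genes, the calls were 2512 of 14591 in the main fit, 2457 with RLE size factors and 2594 with library totals unscaled. They were 1942 of 27593 with no low-count filter, 6952 of 13800 in the fit of only the 6 libraries and 2172 with the replicate block. The cause was not tested. No called change reversed. Same-numbered libraries did not deviate together (r of -0.129 to 0.163, median -0.02, over 18 pairs). With 3 libraries a group, this check cannot show whether the numbers pair them. The replicate block otherwise moved no count of chaperones called by over 1.5 times. Fitting without M0 replicate 1 lowered the common dispersion from 0.0324 to 0.00166. The spread of M0 limits small changes: of the 10, Sdf2l1, Creld2 and Dnajb9 varied most there.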
